A study of Rattus norvegicus with 9 samples.

Results

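The phospholipase A2 and eicosanoid enzyme genes described here were 10 named genes, Pla2g2a, Pla2g5, Pla2g4a, Pla2g6, Ptgs1, Ptgs2, Ptges, Ptgis, Hpgd and Alox5, taken from 14217 genes measured on a rat expression array. A gene entered through every probe set that the platform annotation gives to it alone, so the members had 15 probe sets, and 4 members had more than 1. No measured value decided which probe sets entered, but the members themselves were chosen with earlier results of these data known. The arrays compared bladder transitional cell carcinoma of rats with the tissue beside the tumor and with normal bladder, 3 arrays each. The tumors (tumor) and the adjacent normal tissues (adjacent) came from the same 3 SD rats, and the normal bladder tissues (normal) came from 3 other SD rats without tumors. All were female and 10 weeks old per the labels. The tumor-bearing rats had received N-methyl-N-nitrosourea (MNU) into the bladder at 20 mg/ml once a week for 10 weeks. The age in the labels is as long as this course, and whether it is the age at its start or at sampling is not stated here. MNU is an alkylating carcinogen. The labels of the normal arrays carry the same MNU text, although the series design calls those rats normal, and whether they received a vehicle is not given in the sources used here.

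Phospholipase A2 enzymes release arachidonic acid from membrane phospholipids. Cyclooxygenases turn it into prostaglandin H2, and terminal synthases turn that into prostaglandin E2, prostacyclin and other prostanoids, while lipoxygenases open the separate leukotriene branch. Prostaglandin E2 is inactivated inside cells by the dehydrogenase that Hpgd encodes, and in the bladder prostanoids are known for their part in muscle tone, sensation and inflammation.

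In tumors, 4 of the 10 members fell and 2 rose against normal bladder. The secreted phospholipases Pla2g2a and Pla2g5, the cytosolic phospholipase Pla2g4a and the breakdown enzyme Hpgd fell. The prostaglandin E synthase Ptges and the cyclooxygenase Ptgs1 rose. Of all 14217 genes, 23.5% passed the same test in either direction, 13.6% higher and 9.95% lower (limma, Benjamini-Hochberg adjusted p under 0.05). In adjacent tissue the same 4 genes fell and Ptges rose, so 5 of 10 members passed against a background of 24.8% of all genes, 13.3% higher and 11.5% lower. These 2 comparisons share the normal arrays. The median log2 difference over the members was -0.64 in tumors and -0.45 in adjacent tissue, beside 0.05 and 0.01 over all genes.

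**Figure D1:**
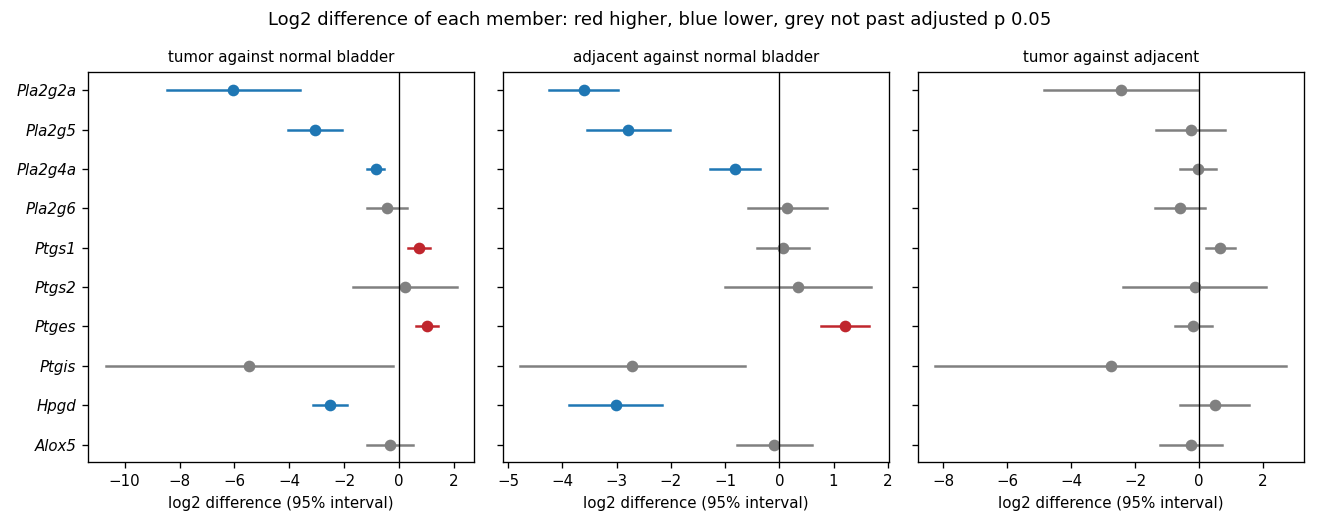
Log2 difference of each member with its 95% interval in the 3 comparisons (horizontal axes, log2, of different width), from the brightest probe set. Pla2g2a, Pla2g5, Pla2g4a and Hpgd lie below 0 against normal bladder in both comparisons, Ptges lies above 0 in both, and no member passed between tumor and adjacent tissue.

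Before the single genes, the arrays themselves are described. Values are log2 signals as deposited, and a signal under 50 (5.64 on the log2 scale) is called dim here, because the spread between arrays of a group widens at low signal. The median SD within groups was 1.02 between log2 4 and 5 and 0.251 between 9 and 10. Correlations between arrays over all probe sets were 0.940 to 0.946 among the normal arrays, 0.899 to 0.931 among the tumors and 0.843 to 0.910 between normal and tumor. Urothelial markers were present on all 9 arrays, and the summed signal of 8 of them, carried by the brightest such as Krt7 and Upk3a, was 65.0% to 109% of the normal mean on the 6 arrays of the tumor-bearing rats. Single genes of that list moved apart, since in tumors Krt7 rose while Krt20 and Upk1a fell, and Krt20 was 7.15, 3.72 and 6.53 in tumors against 9.58 to 9.64 in normal bladder. The tumor 1 array stood apart in muscle. The summed signal of 11 smooth muscle genes was 69.8% of the normal mean there, 2.59% in tumor 2 and 2.93% in tumor 3, and it was 33.9%, 10.8% and 4.53% in adjacent tissues 1 to 3. Results for the tumors are therefore also given without tumor 1, and without it 8 of 10 members passed against normal bladder, where 37.9% of all genes did. The 6 members that passed with all arrays kept their calls without it, at -7.16 for Pla2g2a, -3.39 for Pla2g5, -0.95 for Pla2g4a, 0.82 for Ptgs1, 1.14 for Ptges and -2.45 for Hpgd, and Ptgs2 (higher) and Ptgis (lower) joined them. Fewer cells of a type and less RNA per cell cannot be told apart in such bulk tissue.

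The 250 bases before the annotated start of Pla2g2a, Ptgs2, Ptges and Hpgd are shown here because these genes carried the contrasts described next, a phospholipase and a breakdown enzyme that fell, a synthase that rose and a cyclooxygenase that varied from array to array. They are RefSeq sequences of the rat GRCr8 build, printed 5′ to 3′ on the strand of the gene. The windows are chr5:156359475-156359724 on the plus strand for Pla2g2a, chr13:64713813-64714062 on the plus strand for Ptgs2, chr3:34586988-34587237 on the minus strand for Ptges and chr16:39034832-39035081 on the minus strand for Hpgd. Capitals mark motif matches on either strand.
Pla2g2a: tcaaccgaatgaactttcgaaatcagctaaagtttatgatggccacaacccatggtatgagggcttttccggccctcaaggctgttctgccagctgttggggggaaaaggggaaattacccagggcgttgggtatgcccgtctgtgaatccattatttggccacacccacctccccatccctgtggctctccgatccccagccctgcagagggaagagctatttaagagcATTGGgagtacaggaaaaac
Ptgs2: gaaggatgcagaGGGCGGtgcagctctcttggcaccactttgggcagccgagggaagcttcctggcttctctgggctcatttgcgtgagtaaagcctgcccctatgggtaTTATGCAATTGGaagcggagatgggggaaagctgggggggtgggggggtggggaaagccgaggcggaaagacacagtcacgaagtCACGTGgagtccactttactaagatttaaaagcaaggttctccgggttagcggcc
Ptges: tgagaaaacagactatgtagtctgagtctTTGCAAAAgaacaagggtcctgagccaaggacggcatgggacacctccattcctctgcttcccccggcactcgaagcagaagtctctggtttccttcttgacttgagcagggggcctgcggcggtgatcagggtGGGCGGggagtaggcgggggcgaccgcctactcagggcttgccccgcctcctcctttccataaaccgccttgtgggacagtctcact
Hpgd: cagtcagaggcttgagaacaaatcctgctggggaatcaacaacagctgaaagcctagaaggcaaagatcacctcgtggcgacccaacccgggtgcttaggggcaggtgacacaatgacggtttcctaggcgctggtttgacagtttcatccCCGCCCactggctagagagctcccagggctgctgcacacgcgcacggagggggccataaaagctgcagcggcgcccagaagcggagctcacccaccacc

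The motifs searched on both strands in these windows were the TATA box (TATAAA), the CCAAT box (CCAAT), the Sp1 box (GGGCGG), the E-box (CACGTG), the CRE (TGACGTCA), the AP-1 site (TGANTCA), the C/EBP site (TTNNGCAA), the CArG box and the NF-kappaB site. The Pla2g2a window held a CCAAT box on the opposite strand, beginning 20 bases before the start, a motif present in 34% of 33469 such windows. The Ptgs2 window held an Sp1 box, a C/EBP site that overlaps a CCAAT box on the opposite strand, and an E-box. The Ptges window held a C/EBP site and an Sp1 box, and the Hpgd window held an Sp1 box alone. Sp1 boxes occurred in 30.5%, C/EBP sites in 9.22% and E-boxes in 5.59% of all windows. The other motifs had no match in these 4 windows and were present in 12.9% (TATA box), 6.34% (AP-1), 6.33% (NF-kappaB), 1.59% (CRE) and 1.5% (CArG box) of all windows. Such matches describe letters, and no binding was measured. Of the 10 members, 9 had a window and Ptgis had none in the table used.

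Among the phospholipases, the difference was widest for Pla2g2a, which encodes the secreted group IIA enzyme. Its log2 signal was 14.10, 14.21 and 13.62 in normal bladder, 10.52, 10.80 and 9.78 in adjacent tissue, and 10.17, 5.44 and 8.19 in tumors 1 to 3. All 6 arrays from tumor-bearing rats lay below all 3 normal arrays. In linear signal, adjacent tissue held 9.01%, 10.9% and 5.37% of the normal mean, and the tumors held 7.05%, 0.266% and 1.78%. Pla2g2a fell by 3.61 on the log2 scale in adjacent tissue (SE 0.27, limma adjusted p = 0.00051) and by 6.04 in tumors (SE 1.03, limma adjusted p = 0.011). The tumors varied most, with an SD of 2.37 against 0.31 in normal bladder, and tumor 2 was dim. The call in tumors was lost without normal 1 (limma adjusted p = 0.054) or normal 2 (0.0549), and without tumor 1 the difference was -7.16 (0.00024). Between tumor and adjacent tissue the difference was -2.43, with a 95% interval of -4.84 to -0.03 and overlapping arrays, and it did not pass (limma adjusted p = 0.9997). The order normal above adjacent above tumor was thus clear only in its first step.

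**Figure D2:**
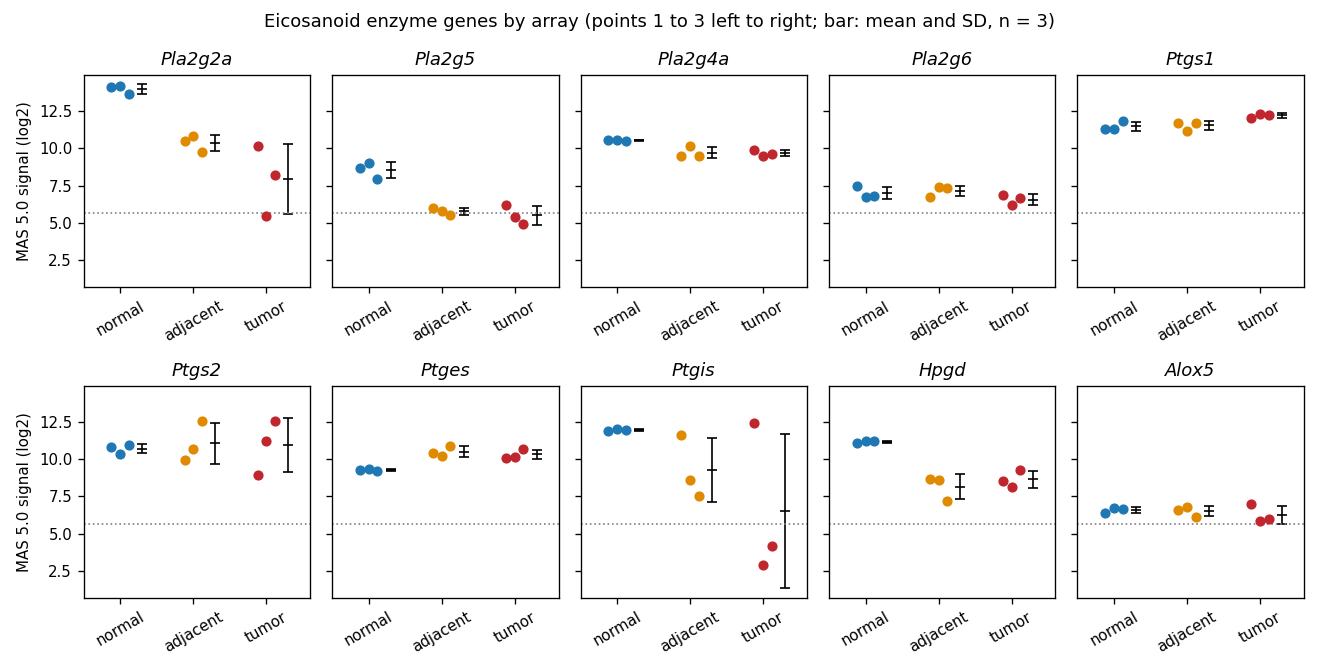
Log2 signal of the 10 members on each array (brightest probe set; points are arrays 1 to 3 from left to right, bars are mean and SD, n = 3, dotted line is a signal of 50). Pla2g2a, Pla2g5, Pla2g4a and Hpgd are highest on the normal arrays, and Pla2g2a, Ptgs2 and Ptgis spread widely among the tumors, with an SD of 2.37, 1.82 and 5.16.

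Pla2g5, the secreted group V phospholipase, is annotated beside Pla2g2a on chromosome 5 in GRCr8, and the gene models of the pair overlap on opposite strands. The array signals of the pair come from separate probe sets. Pla2g5 measured 8.70, 9.02 and 7.92 in normal bladder, 5.97, 5.78 and 5.53 in adjacent tissue, and 6.19, 5.39 and 4.93 in tumors. The normal arrays again lay above all others, while 2 tumor arrays and 1 adjacent array were dim. It fell by 3.05 in tumors (SE 0.42, limma adjusted p = 0.0062) and the difference in adjacent tissue was -2.78 (SE 0.33, limma adjusted p = 0.0019), and both calls held with any array left out. With most lower values near the dim limit, the size of these falls is less sure than their direction, and the differences were -2.14 and -2.03 after 50 was added to every signal. Tumor and adjacent tissue differed by -0.26 (95% interval -1.33 to 0.81).

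Pla2g4a encodes the calcium-dependent cytosolic phospholipase that prefers arachidonic acid. It was 10.55, 10.54 and 10.48 in normal bladder, 9.50, 10.15 and 9.47 in adjacent tissue, and 9.89, 9.51 and 9.64 in tumors. The fall was smaller than for the secreted enzymes but no array overlapped, since the SD of normal bladder was 0.04. Pla2g4a fell by 0.85 in tumors, to 55.7% of normal (SE 0.13, limma adjusted p = 0.0091), and by 0.82 in adjacent tissue (SE 0.20, limma adjusted p = 0.025). The tumor call was lost without normal 1 (0.0524) or normal 2 (0.0517). In adjacent tissue it was lost without normal 1 (0.0986), normal 2 (0.0969) or normal 3 (0.0868), and it was 0.0501 when arrays were centred on their medians. Tumor and adjacent tissue differed by -0.03 (95% interval -0.58 to 0.52).

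Pla2g6, the calcium-independent phospholipase, did not pass in any comparison by any of its 3 probe sets. Its brightest probe set read 7.44, 6.75 and 6.78 in normal bladder, 6.73, 7.39 and 7.30 in adjacent tissue, and 6.85, 6.18 and 6.63 in tumors, so all groups overlapped. The difference was -0.43 in tumors (95% interval -1.17 to 0.30) and 0.15 in adjacent tissue (-0.57 to 0.87). The other probe sets gave -0.32 and -0.60 in tumors, and 0.09 and -1.14 in adjacent tissue, where the last had a limma adjusted p of 0.147.

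The cyclooxygenases showed unlike patterns. Ptgs1, the cyclooxygenase expressed constitutively in many tissues, measured 11.31, 11.29 and 11.81 in normal bladder, 11.73, 11.18 and 11.71 in adjacent tissue, and 12.04, 12.33 and 12.26 in tumors. Every tumor lay above every other array, and adjacent tissue overlapped normal bladder. Ptgs1 rose by 0.74 in tumors, to 167% of normal (SE 0.17, limma adjusted p = 0.028), and the difference in adjacent tissue was 0.07 (95% interval -0.41 to 0.54). By the brightest probe set it was the only member whose tumor and adjacent arrays did not overlap, as was so for 7.06% of all genes. The difference was 0.67 (95% interval 0.21 to 1.13) and did not pass (limma adjusted p = 0.9997). The rise was the least stable of the 6 tumor calls. It was lost without tumor 2 (0.0748), tumor 3 (0.0871), normal 1 (0.11) or normal 2 (0.11), and the second probe set gave 0.63, with overlapping arrays and a limma adjusted p of 0.21.

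Ptgs2, the inducible cyclooxygenase, spread more within groups than it differed between them. Its log2 signal was 10.79, 10.36 and 10.97 in normal bladder, 9.92, 10.69 and 12.55 in adjacent tissue, and 8.97, 11.23 and 12.57 in tumors. In linear signal, tumors 1 to 3 held 29.5%, 142% and 358% of the normal mean, and adjacent tissues 1 to 3 held 57.0%, 97.5% and 353%. Tumor 1 was thus the lowest array and tumor 3 the highest of all 9. The difference from normal bladder was 0.22 in tumors (SE 0.80, 95% interval -1.67 to 2.10) and 0.35 in adjacent tissue (95% interval -1.0 to 1.70), neither past the test. It changed with single tumors, to 1.20 without tumor 1 (limma adjusted p = 0.0429) and to -0.60 without tumor 3 (0.592). Ptgs2 lies next to Pla2g4a on chromosome 13 with no protein-coding gene annotated between them. The values of Pla2g4a stood below normal on tumor 3, where those of Ptgs2 were highest.

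Among the terminal synthases, Ptges, which encodes the inducible microsomal prostaglandin E synthase, measured 9.30, 9.31 and 9.22 in normal bladder, 10.38, 10.18 and 10.89 in adjacent tissue, and 10.11, 10.15 and 10.68 in tumors. All 6 arrays from tumor-bearing rats lay above the normal arrays. Ptges rose by 1.04 in tumors, or 2.05-fold (SE 0.17, limma adjusted p = 0.011), and by 1.21 in adjacent tissue, or 2.31-fold (SE 0.19, limma adjusted p = 0.0054). The second probe set rose by 0.95 in tumors (limma adjusted p = 0.029), but in adjacent tissue it gave 0.51 and did not pass (0.542), with adjacent 1 at 6.90 below all 3 normal arrays (7.73, 7.63 and 7.71). With the mean of both probe sets the adjacent difference was 0.86 and did not pass (limma adjusted p = 0.0848). The tumor call of the brightest probe set was lost without normal 1 (0.0531), normal 2 (0.0522) or normal 3 (0.0536). Tumor and adjacent tissue differed by -0.17 (95% interval -0.75 to 0.41).

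Ptgis, the prostacyclin synthase, varied more than any other member. It was 11.88, 12.003 and 11.97 in normal bladder, 11.65, 8.57 and 7.52 in adjacent tissue, and 12.41, 2.88 and 4.18 in tumors. Tumor 1 lay above normal bladder, while tumors 2 and 3 were dim. In linear signal the tumors held 137%, 0.186% and 0.458% of the normal mean, and adjacent tissue held 80.8%, 9.59% and 4.63%. With an SD of 5.16 among tumors, the difference of -5.46 did not pass (SE 2.23, limma adjusted p = 0.138). Without tumor 1 it was -8.42 and passed (5.8e-06), although both remaining tumors were dim, so the size is not a measured fold. In adjacent tissue all 3 arrays were below normal and the difference of -2.71 did not pass (limma adjusted p = 0.0732), but it was -3.91 and passed without adjacent 1 (0.00031).

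The breakdown enzyme Hpgd fell in both comparisons by both of its probe sets. The brightest measured 11.06, 11.21 and 11.19 in normal bladder, 8.66, 8.58 and 7.16 in adjacent tissue, and 8.50, 8.15 and 9.24 in tumors. No array of a tumor-bearing rat came within 1 log2 unit of normal bladder, and in linear signal these arrays held 6.3% to 26.6% of the normal mean. Hpgd fell by 2.52 in tumors (SE 0.26, limma adjusted p = 0.0031) and by 3.02 in adjacent tissue (SE 0.37, limma adjusted p = 0.0021). The second probe set gave -3.35 in tumors (limma adjusted p = 0.0076) and -3.85 in adjacent tissue (0.0009). Both calls of the brightest probe set held with each array left out and under every other setting tried. Tumor and adjacent tissue differed by 0.50 (95% interval -0.58 to 1.57), with overlapping arrays. Against normal bladder, the brightest probe sets of Hpgd and Ptges thus moved in opposite directions on all 6 arrays.

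Alox5, the arachidonate 5-lipoxygenase that starts leukotriene synthesis, measured 6.40, 6.75 and 6.62 in normal bladder, 6.60, 6.78 and 6.13 in adjacent tissue, and 6.96, 5.87 and 5.96 in tumors. The groups overlapped. The difference was -0.32 in tumors (95% interval -1.18 to 0.53) and -0.09 in adjacent tissue (95% interval -0.79 to 0.61), and the latter was 0.15 after quantile normalization and 0.11 with arrays centred on their medians.

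Between tumor and adjacent tissue, 0 of 10 members and 0% of all genes passed by limma. At an unadjusted limma p under 0.05 there were 2 members, Pla2g2a and Ptgs1, and 376 of 14217 genes, and the methods' t-test gave 1 member and 443 genes at that level. With 3 arrays against 3, an exact permutation test of a single gene cannot go below p = 0.1 (two-sided). That value was reached by the 6 members without overlap in each comparison with normal bladder, where 45.8% of all genes in tumors and 46.7% in adjacent tissue also had no overlap.

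**Figure D3:**
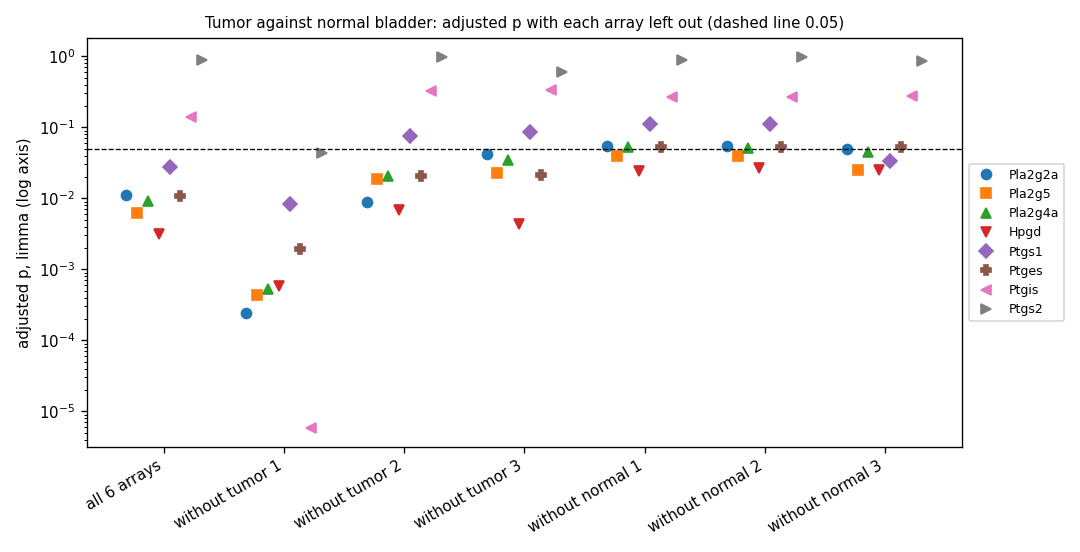
Limma adjusted p (log axis) for the members in tumor against normal bladder, with all 6 arrays and with each array left out in turn (dashed line 0.05). Hpgd and Pla2g5 stay below the line throughout, Ptgs1 crosses it when tumor 2, tumor 3, normal 1 or normal 2 is left out, and Ptgis and Ptgs2 pass it without tumor 1.

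Markers of several cell types moved with these genes. For the counts here, 9.95% of all genes passed as lower in tumors and 11.5% in adjacent tissue by the same limma test. Of 11 smooth muscle genes, 4 fell in tumors and 11 in adjacent tissue, led in signal by Mylk and Actg2. In tumors all 11 had an unadjusted limma p under 0.05, beside 5693 of 14217 genes, and their median log2 difference was -3.88. Of 8 fibroblast genes, 0 passed in tumors by limma, although all 8 had an unadjusted p under 0.05, and 5 fell in adjacent tissue. The summed fibroblast signal was 76.4%, 7.49% and 17.8% of the normal mean in tumors 1 to 3 and 63.7%, 51.2% and 21.4% in adjacent tissues 1 to 3. Ptgis followed this ranking in adjacent tissue and stood above normal in tumor 1, where muscle and fibroblast markers were highest among the tumors. The order of tumors 2 and 3 was not read for Ptgis, because both were dim. Pla2g2a, Pla2g5 and Hpgd were at 7.05%, 18.6% and 15.9% of normal in tumor 1, where smooth muscle markers were at 69.8%. Pla2g2a, at 7.05%, 0.266% and 1.78% in tumors 1 to 3, ranked the tumors as both sums did, but not the adjacent tissues. The brightest probe sets of Pla2g5 and Hpgd ranked the adjacent tissues as both sums did. Hpgd did not rank the tumors so. Tumors 2 and 3 were dim for Pla2g5, so their order was not read. The smooth muscle sums of tumors 2 and 3 were also nearly level, at 2.59% and 2.93%. The share of tissue composition in these falls was not tested.

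All 5 measured basal and squamous genes rose in both comparisons, and their summed signal was 1509% to 2571% of the normal mean on the 6 arrays of tumor-bearing rats, against 94.8% to 107% on normal arrays. Of all genes, 13.6% passed as higher in tumors and 13.3% in adjacent tissue, and these shares also stand beside the neutrophil and macrophage counts. Of 6 neutrophil genes, 3 rose in each comparison, and their sum ran from 1814% in tumor 1 to 10526% in tumor 3 and 25681% in adjacent 3. The normal arrays had a sum of 77.6% to 120% and most of the 6 genes dim there. The sum was carried by S100a8 and S100a9. Across all 9 arrays it did not follow Ptgs2, which was lowest in tumor 1, where the sum lay far above the normal arrays. Within tumors and within adjacent tissues it ranked the arrays as Ptgs2 did, although adjacent 1 and 2 were nearly level, at 3120% and 3163%. The median log2 signal of the 6 genes did not give that ranking, at 6.75, 7.38 and 6.77 in tumors 1 to 3 and 7.27, 6.13 and 8.91 in adjacent tissues 1 to 3. Of 10 macrophage genes, 2 rose in each comparison, with a sum of 116% to 154% in tumors and 117% to 182% in adjacent tissue against 96.0% to 107% in normal bladder. The macrophage sum was 154%, 116% and 129% in tumors 1 to 3, so it was highest in the tumor where Ptgs2 was lowest. Within adjacent tissues it ranked the arrays as Ptgs2 did, at 117%, 135% and 182%. The macrophage list had no common direction, with a median log2 difference of -0.02 in tumors and 0.01 in adjacent tissue. The part of these cells in the values of Ptgs2 or Ptges was not tested.

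**Figure D4:**
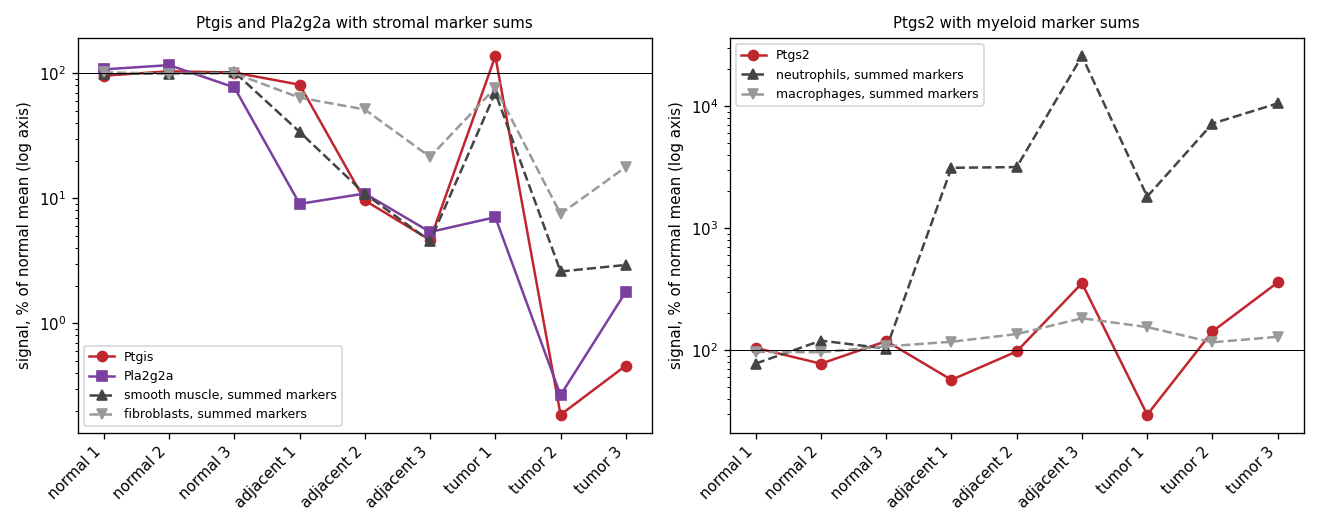
Signal as percent of the normal mean (log axis) on each of the 9 arrays for members and for summed marker lists. Ptgis drops from 137% in tumor 1 to 0.186% in tumor 2 where smooth muscle markers drop from 69.8% to 2.59%, and Ptgs2 is lowest and highest among the tumors where the summed neutrophil signal, carried by S100a8 and S100a9, is. The summed macrophage signal is highest among the tumors in tumor 1, where Ptgs2 is lowest, and ranks the adjacent tissues as Ptgs2 does.

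The genes whose log2 signal was most like that of a member over all 9 arrays were found by Pearson r. Such values mainly carry the gap between normal bladder and the other arrays, and they are descriptions. For Pla2g2a they were Plcb4, a phospholipase C (0.985), Fbln5, an elastic fiber protein (0.982), and Grin2c (0.981). Pla2g5 was most like Prelid2 (0.989), Wdfy1 (0.983) and Bmal1 (0.983), and Pla2g4a most like Tmem176b (0.988), Vkorc1 (0.983) and Kmt5b (0.982). Ptges went with the RNA-processing genes Hnrnpab (0.991), Fbl (0.990) and Cdc5l (0.990). Hpgd went with Sat2 (0.988), Ncald (0.987) and the fatty acid desaturase Fads2 (0.986), and Ptgs1 less closely with Zbtb11os1 (0.946), Porcn (0.926) and Cdkn2aipnl (0.916). Among the members, the strongest r over the 9 arrays was with Ptges, at -0.914 for Pla2g5, -0.907 for Pla2g4a and -0.899 for Hpgd. The strongest positive r was 0.892, between Pla2g5 and Pla2g4a. It was 0.882 between Pla2g2a and Pla2g5 and 0.849 between Pla2g2a and Ptgis, and other pairs not listed here had values of like size.

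The wider pathway was described by 86 other genes, of which 71 were measured. In tumors 14 rose, 7 fell and 50 did not pass, so 21 of 71 passed beside 23.5% of all genes, and the median log2 difference was 0.25 beside 0.05. In adjacent tissue 11 rose and 6 fell, so 17 of 71 passed beside 24.8% of all genes, with a median of 0.08 beside 0.01. These shares of all genes are also the background for the counts of the smaller lists that follow. None passed between tumor and adjacent tissue by limma, where 4 had an unadjusted p under 0.05. Of the 71 genes, 11 were dim on all 9 arrays.

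Around the phospholipases, the M-type receptor gene Pla2r1, whose product binds secreted phospholipases, fell together with Pla2g2a and Pla2g5. It measured 8.61, 8.64 and 9.12 in normal bladder, 6.07, 6.27 and 6.37 in adjacent tissue and 5.84, 6.44 and 7.08 in tumors. Pla2r1 fell by 2.34 in tumors (SE 0.34, limma adjusted p = 0.0071) and by 2.56 in adjacent tissue (limma adjusted p = 0.00086). Of the 16 measured phospholipase genes in that list, 2 rose and 2 fell in each comparison. Of the 3 inhibitor genes, the annexins Anxa1 and Anxa2, which bind phospholipids and inhibit phospholipase A2, rose in both, by 1.58 and 1.47 in tumors and by 1.52 and 1.13 in adjacent tissue. The annexins, like Krt20 and Upk1a above, were named after their values were seen.

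In the list of prostanoid synthases other than the members, Akr1b8, an aldo-keto reductase, had the largest rise of 8 genes. Its place there is a choice of the list, and no synthase activity was measured. Akr1b8 measured 9.37, 10.57 and 9.49 in normal bladder, 13.67, 14.06 and 14.02 in adjacent tissue and 14.45, 14.77 and 13.98 in tumors. Akr1b8 rose by 4.59 in tumors (SE 0.34, limma adjusted p = 0.0016) and by 4.10 in adjacent tissue (limma adjusted p = 0.00049). This family is also known for detoxification of aldehydes, and its list counted 2 genes higher in tumors and 1 in adjacent tissue.

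In transport and breakdown, 3 of 6 genes rose in each comparison and none fell, in contrast to Hpgd. Ptgr1, the prostaglandin reductase that acts after the dehydrogenase, measured 10.79, 10.69 and 10.75 in normal bladder, 13.31, 12.81 and 13.12 in adjacent tissue and 13.67, 13.81 and 12.74 in tumors. Ptgr1 rose by 2.66 in tumors (SE 0.27, limma adjusted p = 0.0029) and by 2.33 in adjacent tissue (limma adjusted p = 0.0003). Abcc4, an exporter of prostaglandins and other organic anions, rose by 2.38 in tumors (SE 0.35, limma adjusted p = 0.0073) and by 1.74 in adjacent tissue (limma adjusted p = 0.0033).

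The lipoxygenase branch held Ggt1, whose product cleaves glutathione conjugates such as leukotriene C4. All 3 normal arrays were dim for Ggt1 (3.37, 4.09 and 3.07), while tumors read 7.45, 9.73 and 10.46 and adjacent tissues 7.88, 9.31 and 10.80. Ggt1 was at least 11.9-fold higher in tumors and at least 12.9-fold higher in adjacent tissue against a signal of 50 (limma adjusted p = 0.0056 and 0.0019). Alox15 and Alox12, lipoxygenase genes, fell in tumors, Alox15 with all 3 tumor arrays dim, at least 1.13-fold lower (limma adjusted p = 0.0093), and Alox12 with 2 of 3 tumor arrays dim (0.027). Normal 1 was dim for Alox15 too, at 5.55, so its bound holds for the normal mean and not for every normal array. In adjacent tissue Alox12 was at least 2.25-fold lower (limma adjusted p = 0.022) and Alox15 did not pass. Dpep1, a dipeptidase that converts leukotriene D4, fell by 1.98 in tumors (SE 0.45, limma adjusted p = 0.027), and in the list of 17 genes 2 rose and 3 fell in tumors.

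Epoxygenase and receptor genes came last. Cyp2j3, a cytochrome P450 of the epoxygenase branch, fell by 1.97 in tumors (SE 0.38, limma adjusted p = 0.016) with 2 tumors dim, and in that list of 6 genes 1 rose and 2 fell in tumors and 0 passed in adjacent tissue by limma, with 3 at an unadjusted p under 0.05. Of 7 prostanoid receptor genes, 1 rose in tumors and 2 fell in adjacent tissue. Ptger3, a prostaglandin E2 receptor, measured 9.29, 9.41 and 8.73 in normal bladder, 8.05, 5.63 and 5.20 in adjacent tissue and 8.41, 1.61 and 5.05 in tumors. It fell by 2.85 in adjacent tissue, with 2 arrays dim (SE 0.68, limma adjusted p = 0.024), and in tumors, also with 2 dim, the difference of -4.12 did not pass (0.101), with tumor 1 highest as for Ptgis. Ptgfr, the prostaglandin F receptor, passed as lower in adjacent tissue (limma adjusted p = 0.041), where all 3 arrays were dim and 1 normal array was dim too. None of the 4 leukotriene and lipoxin receptor genes passed by limma in either comparison with normal bladder, and at an unadjusted p under 0.05 there was 1 in tumors and 0 in adjacent tissue.

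**Figure D5:**
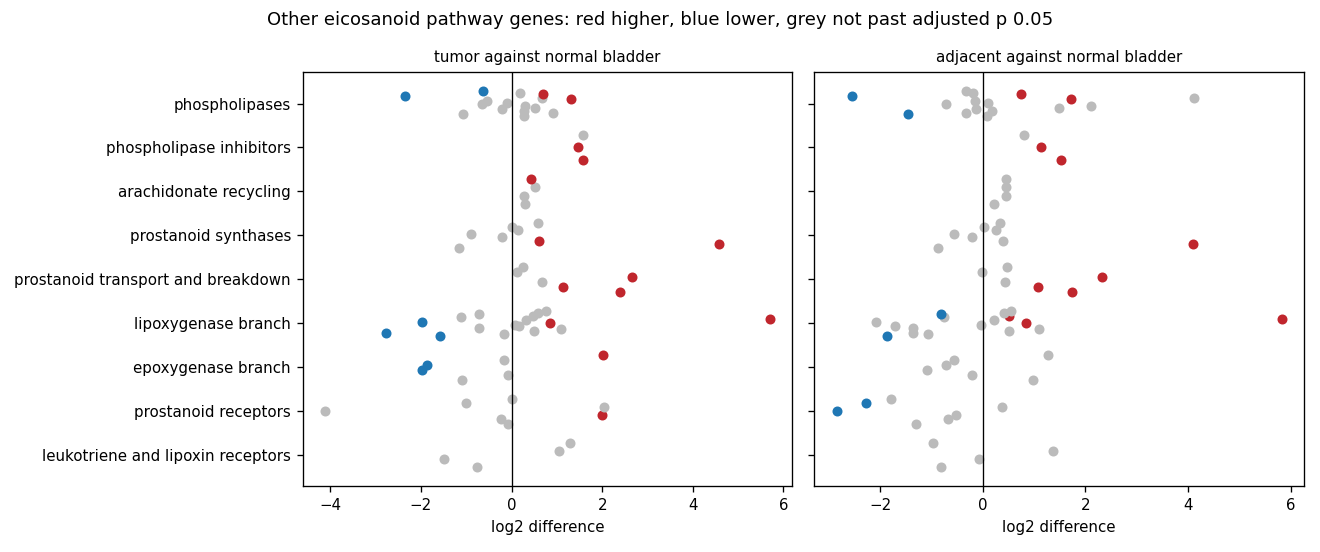
Log2 difference (horizontal axis) of each measured gene of the 9 other eicosanoid lists against normal bladder, in tumors and in adjacent tissue (red rose, blue fell, grey did not pass). Akr1b8 lies at 4.59 in tumors, the point of Ggt1 rests on dim normal arrays and is at least 11.9-fold by its bound, and 21 of 71 genes in tumors and 17 of 71 in adjacent tissue are colored.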

How the data were processed

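Total RNA of 3 tumor, 3 adjacent and 3 normal bladder tissues was hybridized to Affymetrix rat arrays. The authors summarized and scaled the scans with MAS 5.0, and the deposited value table holds log2 signal for each probe set (2% trimmed mean of linear signal close to 500 on every array). Scanner software was Command Console Software 3.1 and the authors' analysis software Gene Spring Software 11.0. Arrays have no read depth, so the number of arrays limits the precision. After removal of 57 control probe sets, 31042 were tested with limma 3.58.1 in R 4.3.3 (lmFit, eBayes with trend, Benjamini-Hochberg, threshold 0.05), each pair of groups fitted alone without covariates. The platform annotation gave 20826 probe sets 1 gene, 436 several and 9780 none, and a gene was represented by its brightest probe set (14217 genes). Members and gene lists were chosen with earlier results of these data known. All members were named. Of the other pathway genes, those with the 4 largest rises and 4 largest falls in each comparison with normal bladder and any that passed between tumor and adjacent tissue were named. The 2 brightest genes of a marker list were named for smooth muscle, urothelium and neutrophils. Lists of T cell and adipocyte genes were also measured and are not described here. A further 3 genes most like each member that passed were named. Where all arrays on the lower side were under 50, a fold was given as a bound against 50, without order among dim values. P-values for normal bladder measure the spread between rats. Tumor and adjacent arrays share rats, but the labels do not say that a replicate number marks a rat. Alternatives were quantile normalization, median centring, a filter at the 40th percentile, an offset of 50, no trend, all 9 arrays in 1 fit, a replicate block, averaged probe sets per gene, the methods' t-test, each array left out, and signals under 50 raised to 50. No batch or scan date was given in the sources used here. Promoter windows and gene order came from RefSeq tables of GRCr8.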

Additional observations from a re-analysis of the deposited data

How the results depend on the processing

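Over 30 member differences and 17 alternatives each, 459 values kept their direction and side of the threshold, 30 lost the call, 3 gained it and 18 changed sign. Hpgd in both comparisons with normal bladder, and Pla2g2a and Pla2g5 in adjacent tissue, passed under all 17. The methods' t-test after Benjamini-Hochberg called 2 members in tumors and 3 in adjacent tissue, 8 pathway genes in each, and 1077 and 1480 of all genes, beside 3341 and 3531 by limma. At the methods' unadjusted threshold and fold it called 2083 and 2310 of all genes, and between tumor and adjacent tissue 1 pathway gene and 113 genes. Without the trend, 11 and 10 pathway genes and 1318 and 1894 of all genes passed. Raising signals under 50 to 50, a setting chosen after seeing the data, left 12 pathway genes in tumors. The cause of these shifts was not tested.

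With 1 array left out, the tumor comparison called 2 to 8 members, 8 to 32 pathway genes and 902 to 5390 of all genes (fewest without normal 2, most without tumor 1), and the adjacent comparison called 8 to 20 pathway genes and 1664 to 4201 of all genes. Median centring moved the median difference of all genes from 0.05 to 0.25 in tumors and from 0.01 to 0.21 in adjacent tissue, and the share of calls that were higher from 57.7% and 53.7% to 69.7% in both. With it, 6 of 10 members passed in tumors beside 25.3% of all genes, and 4 of 10 in adjacent tissue beside 30.4%.

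Sign changes were all in differences that did not pass under the main settings. With 1 array left out, Ptgs2 ran from -0.60 to 1.20 in tumors and from -0.40 to 0.91 in adjacent tissue, and in adjacent tissue Ptgs1 from -0.026 to 0.25 and Alox5 from -0.23 to 0.10. Between tumor and adjacent tissue Ptgs2 ran from -0.95 to 0.85, Pla2g4a from -0.15 to 0.19, Pla2g5 from -0.60 to 0.026 and Ptges from -0.36 to 0.032. Alox5 in adjacent tissue was 0.15 after quantile normalization and 0.11 with median centring, and the mean of probe sets gave -0.30 for Pla2g6 in adjacent tissue and 0.13 for Ptges between tumor and adjacent tissue. Raising low signals gave 0.024 for Pla2g5 there.

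The series design calls the tumor and adjacent tissues paired, but the labels do not say that a number marks a rat, so the numbers were not taken as pairs. Intervals between tumor and adjacent tissue therefore treat their arrays as independent. Same-numbered tumor and adjacent arrays had deviations correlated at 0.240, 0.0443 and 0.137. With the replicate number as a block, 6 members and 2242 genes passed in tumors, 5 members and 2864 genes in adjacent tissue, and 0 members and 0 genes by limma between tumor and adjacent tissue.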

Other observations

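Cell types that make prostanoids or leukotrienes but were not set beside a member above gave these values. Beside their counts, 13.6% of all genes passed as higher and 9.95% as lower in tumors, and 13.3% and 11.5% in adjacent tissue. The summed signal of 4 platelet genes was 98.0% to 165% of the normal mean in tumors and 63.8% to 100% in adjacent tissue, and 1 of them rose in tumors. The sum of 7 mast cell genes was 188%, 238% and 62.8% in tumors 1 to 3 and 135%, 184% and 90.6% in adjacent tissues 1 to 3, with 1 gene higher in tumors and 0 past the limma test in adjacent tissue, where 1 had an unadjusted p under 0.05. The sum of 7 endothelial genes was 82.2% to 125% in tumors and 84.5% to 112% in adjacent tissue. The sum of 3 mesothelial genes was 109%, 253% and 555% in tumors, of which 1 rose and 2 fell, and 38.0%, 119% and 167% in adjacent tissues, where 0 rose and 2 fell by limma.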
